A study of Mus musculus with 6 samples.

Results

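The genes described here encode the immunoproteasome and the machinery that loads peptides onto MHC class I molecules. They were chosen by name, as the rows of the deposited expression table whose gene symbol was Psmb8, Psmb9, Psmb10, Psme1, Psme2, Tap1, Tap2, Tapbp, Nlrc5 or Erap1. All 10 were found among 54532 listed genes, and 10 of 10 passed the filter on low values that left 15520 genes for testing.

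RNA from the infarct and its border zone was sequenced in bulk, with 1 library per mouse, from 3 WT and 3 Crlf2-/- mice on day 7 after myocardial infarction (MI). In both groups the left anterior descending coronary artery had been ligated, and no unoperated heart was among these libraries, so every value below is a level in injured tissue. The strain label was C57BL/6 throughout. WT mice were young adult male C57BL/6J animals, and Crlf2-/- mice lack the TSLP receptor chain in the whole body on a C57BL/6J background, with the deleted exons, the sex and the age of the knockout animals not given in the sources used here. The design asks how expression in the healing infarct differs when TSLP, a cytokine of epithelial and stromal cells, cannot signal through its receptor.

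Cells cut cytosolic proteins into peptides with the proteasome, a barrel whose cutting subunits can be exchanged for inducible ones, mainly under interferon gamma, to give the immunoproteasome. The peptides are pumped into the endoplasmic reticulum by the transporter TAP, trimmed there and placed on class I molecules, which show them to CD8+ T cells. In the heart these genes are expressed by infiltrating leukocytes and, under interferon, by resident cells as well. In bulk tissue, fewer cells of a type and less RNA per cell cannot be told apart.

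Levels are FPKM, the fragments of a gene scaled to its length and to the size of its library. Libraries held 18508646 to 19682428 fragments on listed genes. Crlf2 itself stood at 26.6, 25.1 and 21.6 FPKM in WT and at 13.2, 18.7 and 19.8 FPKM in Crlf2-/- hearts, lower in 3 of 3 but still transcribed (log2 fold change -0.52, limma adjusted p = 0.521). Since the deleted part was not given, this total cannot show whether the receptor was lost. The paper describes PCR on tail DNA to tell the genotypes of the mice apart. The RNA protocol among the labels named retinas, whereas the tissue label and the study named heart. Summed FPKM of 6 retina genes was 0.110 to 0.195 per library, against 622 to 1823 for 7 cardiomyocyte genes.

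None of the 10 genes passed the test, whose limits were 0.05 for limma's adjusted p and 0.5, in either direction, for the log2 fold change. Over all genes tested, 0.0129% passed it (2 genes), and voom, limma's model for fragment counts, also called 0 of the 10 and gave 2 of them an unadjusted p under 0.05. At the same limits the paper, testing counts with DESeq2, reported many more genes as different. At an unadjusted p under 0.05, 2 of 10 were higher in Crlf2-/- hearts, namely Tap1 and Tapbp, beside 3.22% of all genes. The same pair had all 3 Crlf2-/- libraries above all 3 WT libraries, beside 5.37% of all genes, and 10 of 10 log2 fold changes lay above 0, beside 49.1%. Most of the 10 genes were correlated over the libraries, so these 10 signs are not 10 separate observations. The median log2 fold change of the 10 was 0.16, beside 0.00 over all genes tested, and the smallest and the largest were 0.02 for Psme1 and 0.62 for Tap1.

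**Figure D1:**
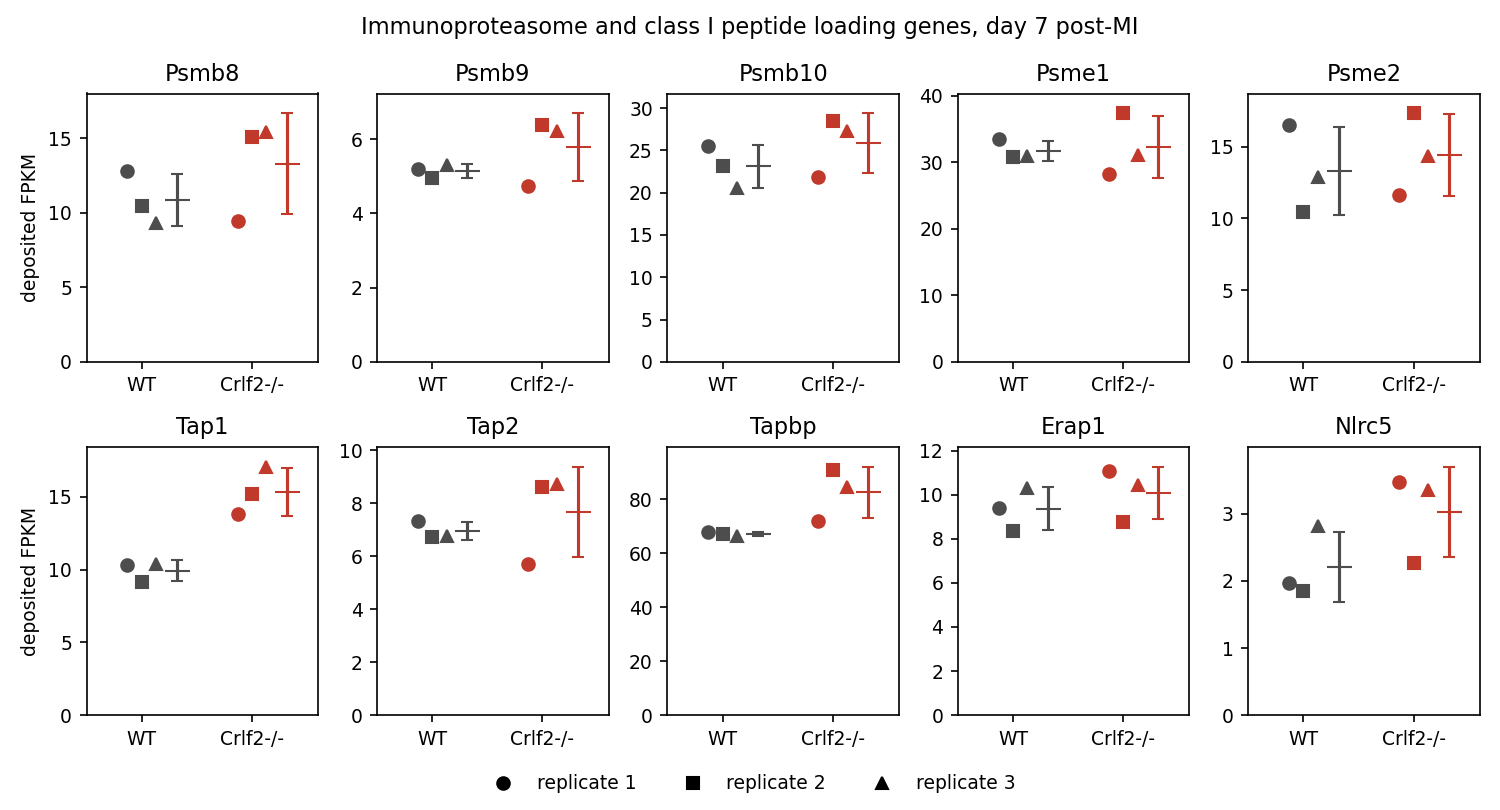
Deposited FPKM of the 10 genes (vertical axis, from 0) in the 3 WT (grey) and 3 Crlf2-/- (red) hearts, with 1 point per mouse and, at the right of each group, the mean with its SD. Tap1 and Tapbp are the genes whose groups do not overlap, and Crlf2-/- replicate 1 is the lowest Crlf2-/- heart for 8 of 10 genes.

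The inducible subunits Psmb8, Psmb9 and Psmb10 carry the cutting sites of the immunoproteasome. Psmb8 encodes LMP7, which takes the place of the constitutive subunit Psmb5. Its level was 12.8, 10.4 and 9.34 FPKM in the WT hearts and 9.43, 15.1 and 15.4 FPKM in the Crlf2-/- hearts. Crlf2-/- replicates 2 and 3 were above every WT heart, but replicate 1 lay among the lower WT hearts, so the groups overlapped. The log2 fold change of Psmb8 was 0.27 ± 0.20 (SE, n = 3 and 3), with an adjusted p of 0.938 by limma.

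Psmb9 encodes LMP2, the counterpart of Psmb6. It stood at 5.20, 4.94 and 5.31 FPKM in WT and at 4.73, 6.38 and 6.22 FPKM in Crlf2-/- hearts. WT hearts were close to one another, and Crlf2-/- replicate 1 was the lowest of all 6. Its log2 fold change was 0.15 ± 0.14 (SE), with a limma adjusted p of 0.955. Psmb10 encodes MECL-1, the counterpart of Psmb7, and was the most abundant of the 3 inducible subunits per length, at 25.6, 23.2 and 20.5 FPKM in WT and 21.9, 28.4 and 27.3 FPKM in Crlf2-/- hearts. Again the first Crlf2-/- heart fell inside the WT range. For Psmb10 the log2 fold change was 0.16 ± 0.14 (SE), with a limma adjusted p of 0.953. The thymus-specific subunit Psmb11 was listed at 0 in all 6 libraries.

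The constitutive partners gave a second reading, since a ratio within a library does not depend on library size. Psmb8 over Psmb5 was 0.230, 0.192 and 0.295 in WT and 0.236, 0.269 and 0.309 in Crlf2-/- hearts, with overlapping groups (exact permutation test, two-sided, p = 0.4). For Psmb9 over Psmb6 the ratio was 0.119, 0.140 and 0.227 in WT and 0.160, 0.175 and 0.187 in Crlf2-/- hearts, and the WT hearts spanned the range of the others (exact permutation p = 0.6). Psmb10 over Psmb7 differed in pattern, at 1.48, 1.53 and 1.51 in WT and 1.95, 1.75 and 1.67 in Crlf2-/- hearts. Every Crlf2-/- heart lay above every WT heart in the Psmb10 ratio, by 0.24 on the log2 scale, with an exact permutation p of 0.1, the smallest that 3 against 3 allows, and 0.3 after adjustment over the 3 ratios. In Crlf2-/- replicate 1 this ratio was the highest of all although Psmb10 itself was not, and Psmb7 was at 11.2 FPKM there and at 13.6 to 17.3 FPKM in the other 5 libraries.

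How a ratio is scaled to length matters for its size and not for the comparison. The table's length of Psmb7 is 2.95 times, that of Psmb9 2.71 times and that of Psmb6 2.35 times the length of the principal transcript in GENCODE M21, because retained introns and long variants are included. Per length of the principal transcript, the mean ratio of Psmb10 to Psmb7 was 0.666 in WT and 0.788 in Crlf2-/- hearts instead of 1.51 and 1.79. Psmb9 over Psmb6 moved less, from means of 0.162 and 0.174 to means of 0.187 and 0.201.

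Psme1 and Psme2 encode the alpha and beta chains of PA28, a ring that caps the proteasome and opens its gate. Psme1 was at 33.5, 30.8 and 30.9 FPKM in WT and 28.2, 37.3 and 31.1 FPKM in Crlf2-/- hearts. Its Crlf2-/- hearts held both the lowest and the highest value, and the log2 fold change was 0.02 ± 0.12 (SE), with a 95% confidence interval of -0.27 to 0.30 and a limma adjusted p of 0.996. Psme2 was at 16.5, 10.4 and 12.9 FPKM in WT and 11.6, 17.3 and 14.4 FPKM in Crlf2-/- hearts, a wide spread within both groups. Its log2 fold change was 0.13 ± 0.20 (SE), with an interval of -0.33 to 0.59 and a limma adjusted p of 0.995. Leaving out WT replicate 2 or Crlf2-/- replicate 2 turned its sign, to -0.04 and -0.01.

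Psme2 counts carry a further uncertainty. A copy without introns, Psme2b on chromosome 11, was assigned 471 to 625 fragments per library while Psme2 was assigned 399 to 713. Psme2 thus held between 42.1% and 59.6% of the sum of both. Reads that match both places may have been split between them by the authors' counting. Psme1 over Psme2 averaged 2.46 in WT and 2.25 in Crlf2-/- hearts, with overlapping groups.

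Tap1 and Tap2 encode the chains of the TAP transporter, which works as their heterodimer. Tap1 was at 10.3, 9.13 and 10.4 FPKM in WT and at 13.8, 15.2 and 17.1 FPKM in Crlf2-/- hearts, behind which stood 1083 to 2109 fragments per library. Even the lowest Crlf2-/- heart was above the highest WT heart. The difference on the log2 scale of 0.62 ± 0.12 (SE, n = 3 and 3, with a 95% confidence interval of 0.36 to 0.89) had an unadjusted p of 0.000635 and ranked 60 of 15520 genes by p, but its limma adjusted p was 0.162, and over all alternatives it ranged from 0.142 to 0.597. Tap1 was higher in 3 of 3 Crlf2-/- hearts than in any WT heart, with an exact permutation p of 0.1, the smallest possible.

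Tap2, the partner chain of Tap1, was at 7.34, 6.74 and 6.79 FPKM in WT and 5.71, 8.62 and 8.72 FPKM in Crlf2-/- hearts. One Crlf2-/- heart, replicate 1, was the lowest of the 6 and the others were the highest. The log2 fold change of Tap2 was 0.12 ± 0.17 (SE), with an interval of -0.26 to 0.51 and a limma adjusted p of 0.995. The ratio of Tap1 to Tap2, chosen after the values were seen and so given without a test, was 1.41, 1.35 and 1.53 in WT and 2.42, 1.76 and 1.96 in Crlf2-/- hearts. It was highest in Crlf2-/- replicate 1, where Tap1 lay above the WT hearts and Tap2 below them. Tap1 over Psmb9, chosen in the same way, was 1.98, 1.85 and 1.95 in WT and 2.92, 2.38 and 2.75 in Crlf2-/- hearts.

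**Figure D2:**
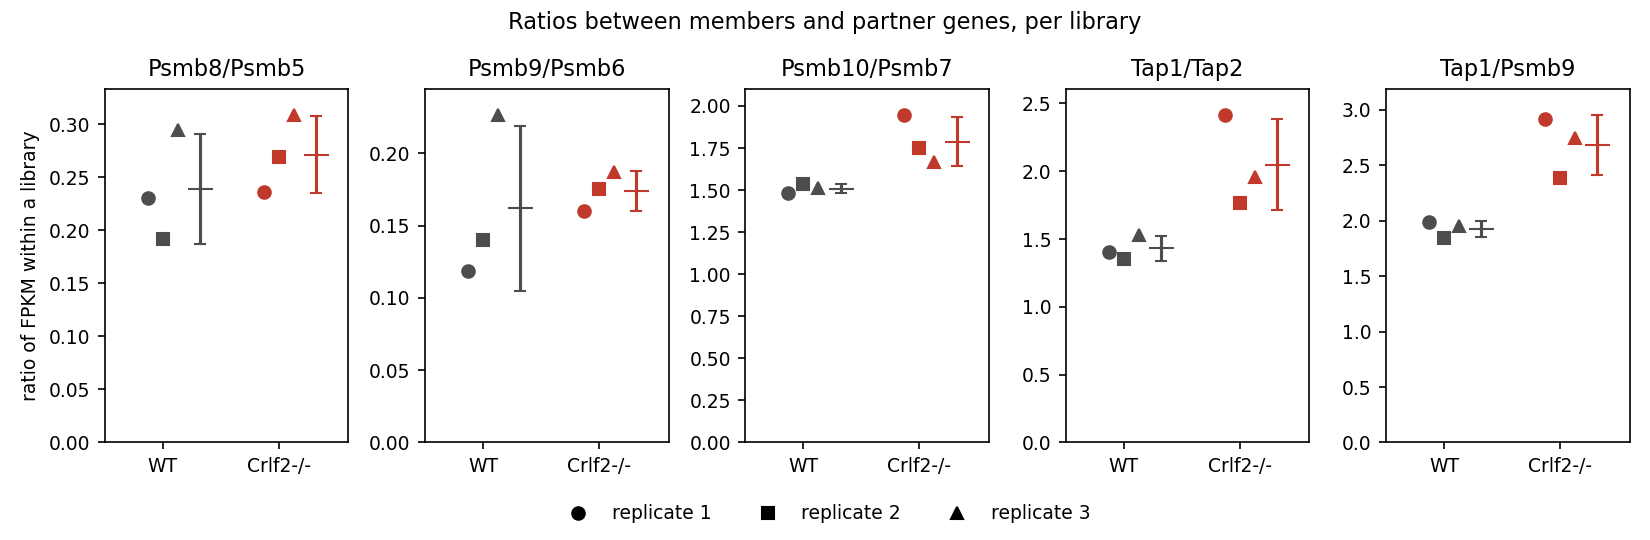
Ratios of FPKM within each library (vertical axes, from 0) for the inducible subunits over their constitutive partners and for Tap1 over Tap2 and over Psmb9, with 1 point per heart (WT grey, Crlf2-/- red) and the mean with its SD beside each group. The groups overlap for Psmb8/Psmb5 and Psmb9/Psmb6 and do not overlap for Psmb10/Psmb7, Tap1/Tap2 and Tap1/Psmb9.

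Tap1 and Psmb9 lie head to head in the MHC on chromosome 17, a pair known for being transcribed away from each other out of 1 stretch of DNA. RefSeq places the start of Psmb9, on the minus strand, at base 34187330 and the start of Tap1, on the plus strand, at base 34187556 of GRCm38.p6, which leaves 225 bases between them. Within that stretch neither the letters of an interferon-stimulated response element (ISRE, searched as GAAA, any 2 bases and GAAA again), nor those of a gamma-activated site (GAS, TTCNNNGAA), nor the NF-kB motif was found on either strand. Sites that differ from the searched letters would have been missed, so this does not show that interferon factors cannot bind there. In the table the bodies of Tap1 (17:34187553-34197225) and Psmb9 (17:34181988-34187764) overlap by 212 bases, all exonic in some transcript. Whether the authors' counting used strand was not stated, so fragments in the overlap could have gone to either gene or to none. The CCAAT box and the GC box are shown because they are the searched motifs that were found between the starts. The CCAAT box lies at -8 to -4 and the GC box at -55 to -50 from the start of Psmb9, and at -222 to -218 and -176 to -171 from that of Tap1. They are read on the strand of Tap1 with the motif in capitals (chr17:34187322-34187351 and chr17:34187368-34187397, GRCm38.p6, plus strand). All 30 bases of each lie in an exon of some Tap1 or Psmb9 transcript of GENCODE M21.
Tap1-Psmb9 CCAAT box: gggctcggctttCCAATcagcggctgcgcg
Tap1-Psmb9 GC box: cagactgaggccCCGCCCcatcatcgcgca

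Windows from 250 bases before to 50 bases after a RefSeq start were available for 8 of the 10 genes, 9 windows in all because Psme2 has more than 1 start. An ISRE was found in 2 of these 9 windows, beside 3.44% of 32851 mouse windows, and a GAS in 1, beside 8.30%. The NF-kB motif was in 0 of 9, beside 8.46%. A GC box (GGGCGG) was in 7 of 9, beside 35.7%, and a CCAAT box in 3 of 9, beside 37.4%, with the windows of Tap1 and Psmb9 sharing theirs and the windows of Psme2 holding the same GC boxes, so that these windows are not separate observations. Both strands were searched, and a match describes letters only. The windows with an interferon motif belonged to Erap1, Psme1 and Psmb8, none of which had an unadjusted p under 0.05. They are printed to show the motif in its surroundings, in capitals, on the strand of the gene (Erap1, chr13:74639839-74639868; Psme1, chr14:55578493-55578522; Psmb8, chr17:34198088-34198117; all GRCm38.p6 and plus strand). Counted from the start used, the motif lies at -4 to 5 in Erap1, 9 to 18 in Psme1 and -97 to -89 in Psmb8. All 30 bases of each stretch lie in an exon of some transcript of the 10 genes in GENCODE M21.
Erap1 ISRE: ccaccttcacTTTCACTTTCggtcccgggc
Psme1 ISRE: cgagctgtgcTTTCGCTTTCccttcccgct
Psmb8 GAS: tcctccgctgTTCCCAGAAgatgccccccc

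Tapbp encodes tapasin, which bridges TAP and the empty class I molecule and edits its peptide. It was the most abundant of the 10 genes per length, at 68.0, 67.3 and 66.4 FPKM in WT and 72.1, 90.8 and 84.7 FPKM in Crlf2-/- hearts. WT hearts differed by no more than 0.05 on the log2 scale, while the Crlf2-/- hearts, all above them, spread over 0.32. For Tapbp the log2 fold change was 0.29 ± 0.12 (SE, with a 95% confidence interval of 0.02 to 0.56), with an unadjusted p of 0.0375 and a limma adjusted p of 0.711. Leaving out 1 library at a time, the unadjusted p of Tapbp ran from 0.0133 to 0.123. Tapbp overlaps Zbtb22 on the same strand. Zbtb22 had a log2 fold change of 0.15 with a limma adjusted p of 0.949.

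Erap1 encodes the aminopeptidase that trims peptides inside the endoplasmic reticulum. It was at 9.40, 8.36 and 10.3 FPKM in WT and 11.1, 8.77 and 10.5 FPKM in Crlf2-/- hearts, with overlapping groups and a log2 fold change of 0.11 ± 0.13 (SE; limma adjusted p = 0.988). Erap1 overlaps Cast on the other strand. Nlrc5 encodes the transactivator that binds class I promoters and is known to drive Psmb9, Tap1 and B2m as well as the class I heavy chains. It had the lowest level of the 10 genes, 1.96, 1.85 and 2.81 FPKM in WT and 3.48, 2.26 and 3.36 FPKM in Crlf2-/- hearts. The second Crlf2-/- heart lay inside the WT range and the others above it. The log2 fold change of Nlrc5 was 0.44 ± 0.22 (SE; 95% confidence interval -0.06 to 0.95), with a limma adjusted p of 0.820. Fragments of Nlrc5 numbered 341 to 655 per library.

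**Figure D3:**
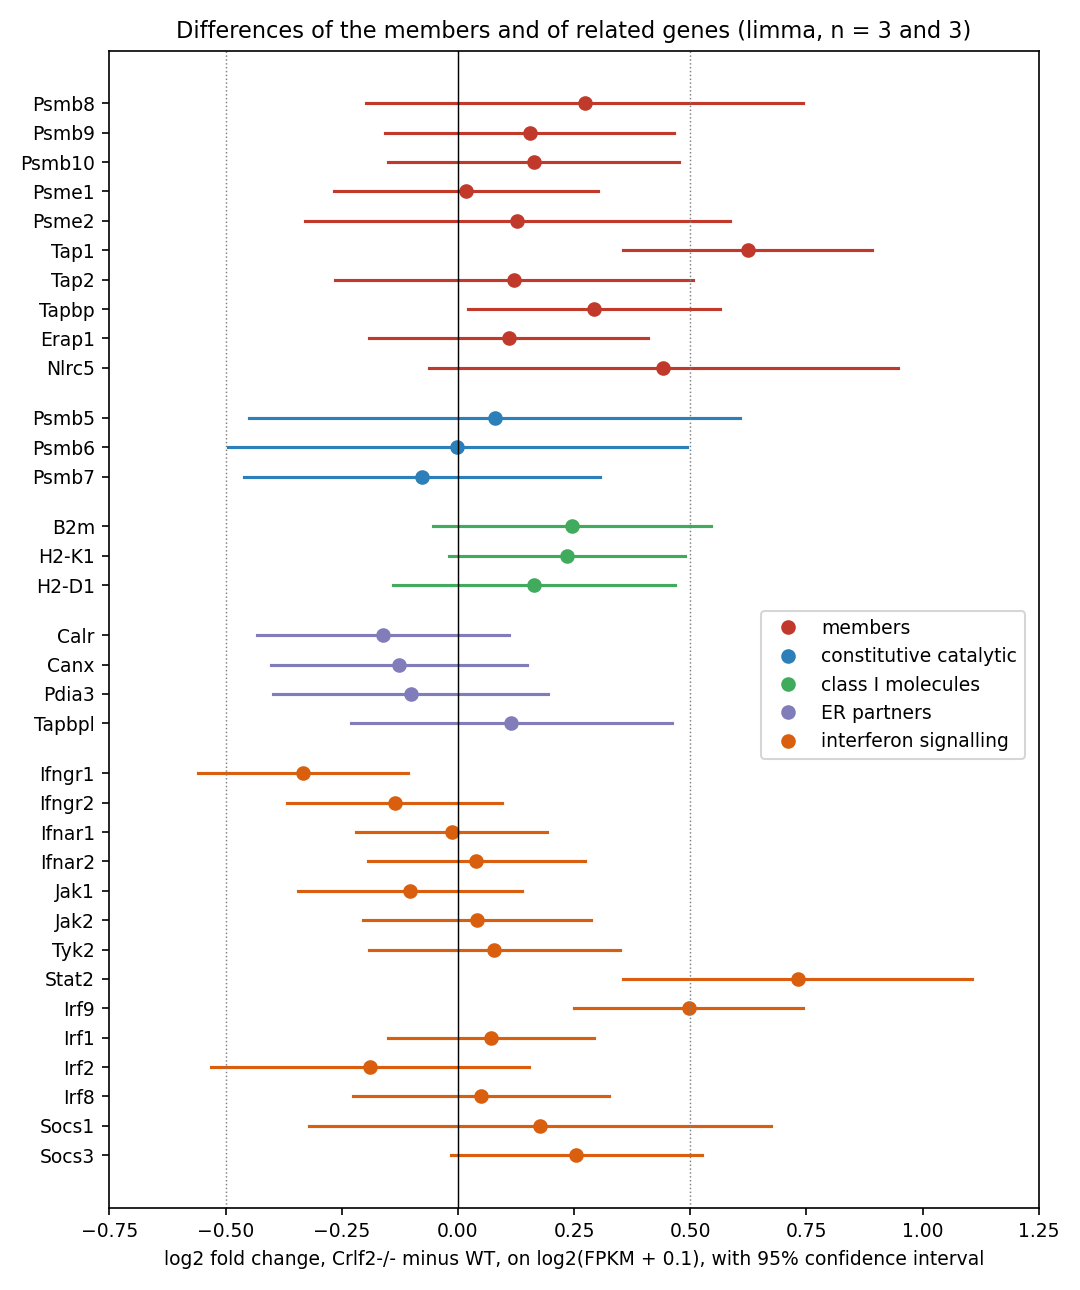
Log2 fold change, Crlf2-/- minus WT, on the log2(FPKM + 0.1) scale (horizontal axis) with its 95% confidence interval for the 10 members (red), the constitutive catalytic subunits, the class I molecules, partners in the endoplasmic reticulum and interferon signalling genes. Dotted lines mark a log2 fold change of 0.5 in either direction. The intervals of Tap1, Tapbp, Stat2 and Irf9 lie above 0 and that of Ifngr1 below it, and none of these genes passed the adjusted threshold.

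From gene to gene, mean FPKM over the 6 libraries ran downward from Tapbp 74.9 through Psme1 31.97, Psmb10 24.5, Psme2 13.9, Tap1 12.7, Psmb8 12.1, Erap1 9.73, Tap2 7.32, Psmb9 5.47 and Nlrc5 2.62. Neighbours in this order held their places in 6 of 6 libraries except for Psme2 and Tap1, Tap1 and Psmb8, and Psmb8 and Erap1, which did so in 4 of 6 each. Those 3 pairs of neighbours did not differ beyond their spread between libraries. Per length of the principal transcript, a scale chosen after seeing the data, Psmb9 was at 14.8 and Erap1 at 12.5, so that Psmb9 stood above Erap1 and Tap2.

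Library by library, the 10 genes did not move as 1 block. In Crlf2-/- replicate 1, Psmb8, Psmb9, Psmb10, Psme1, Psme2 and Tap2 were all below their WT mean, by 0.06 for Psmb10 to 0.27 for Tap2 on the log2 scale, while Tap1, Tapbp, Nlrc5 and Erap1 were above it. In Crlf2-/- replicates 2 and 3 nearly all 10 were above it, with Erap1 at -0.09 in replicate 2 and Psme1 at -0.02 in replicate 3 as the exceptions. Without Crlf2-/- replicate 1, 5 genes had an unadjusted p under 0.05 (Psmb8, Psmb9, Tap1, Tap2 and Tapbp) and still 0 of 10 passed the adjusted test. The count was 1, Tap1 alone, without WT replicate 1, WT replicate 2 or Crlf2-/- replicate 3.

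Erap1 and Nlrc5 followed another course. Both were highest in Crlf2-/- replicate 1 and lowest in WT replicate 2. Across the 6 libraries the Pearson correlation of Nlrc5 with Erap1 was 0.91, and that of Nlrc5 with Psmb8 was -0.08. The closest pairs among the others were Psmb8 with Psmb10 (0.98) and Psmb9 with Tap2 (0.95), and the most opposed pair was Psme1 with Erap1 (-0.57). These are descriptions over 6 libraries that include both genotypes, and Psmb8, Psmb9, Tap1 and Tap2 also share a chromosomal region.

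**Figure D4:**
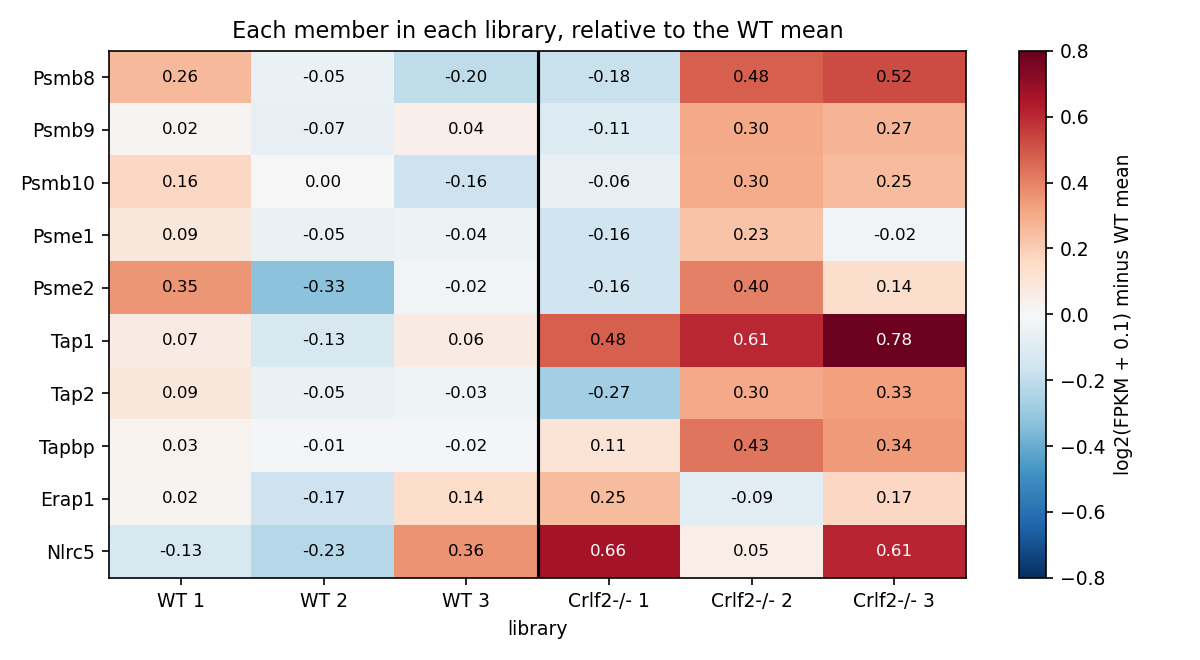
Each gene (rows) in each library (columns), as log2(FPKM + 0.1) minus the WT mean of that gene, with red above and blue below it. Crlf2-/- replicate 1 is below the WT mean for 6 of 10 genes, whereas Tap1 is at least 0.48 above it in every Crlf2-/- heart.

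Among 12119 other tested genes with a mean of at least 1 FPKM, those whose course over the 6 libraries was most like the mean of the 10 were Cmpk2 (r = 0.976), Ifit3b (0.975), Dhcr7 (0.975), Usp18 (0.974) and Sat2 (0.971). Usp18, an enzyme that removes the ubiquitin-like protein ISG15 and is itself induced by interferon, was at 7.50, 5.62 and 6.95 FPKM in WT and 8.08, 14.1 and 12.4 FPKM in Crlf2-/- hearts. Ifit3b, an interferon-induced gene, was at 8.03, 4.96 and 7.04 FPKM in WT and 9.65, 16.1 and 15.9 FPKM in Crlf2-/- hearts. In both, and in Cmpk2, Dhcr7 and Sat2 as well, replicate 1 was the lowest Crlf2-/- heart, as in Psmb8. All of these genes were picked for a course like the mean of the 10. That mean was itself lowest in replicate 1 among the Crlf2-/- hearts, and it was higher in the other Crlf2-/- hearts than in any WT heart. The shared low value and the higher values in the other Crlf2-/- hearts therefore both follow from the selection. Neither is a separate observation.

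Other proteasome genes were read beside Psmb8, Psmb9, Psmb10, Psme1 and Psme2, none of which had an unadjusted p under 0.05. Of the 3 constitutive catalytic subunits, 11 other 20S subunits, 18 subunits of the 19S regulator and 8 other activators, inhibitors and assembly chaperones, 0 had an unadjusted p under 0.05 in either direction and 0 were called. Their median log2 fold changes were 0.00, 0.00, 0.01 and -0.08. Psmb5 and Psmb6, the most abundant of the constitutive catalytic subunits, were lowest in WT replicate 3, at 31.7 and 23.4 FPKM, against 39.97 to 56.1 and 29.6 to 43.7 FPKM elsewhere. The WT ratios of Psmb8 to Psmb5 and of Psmb9 to Psmb6 were highest in that heart.

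In the endoplasmic reticulum, the chaperones calreticulin (Calr), calnexin (Canx) and ERp57 (Pdia3) and the tapasin homologue Tapbpl had log2 fold changes of -0.16, -0.13, -0.10 and 0.11, and 0 of 4 had an unadjusted p under 0.05. Of the 6 peptidases found of 7 listed, which trim or destroy peptides in the cytosol and endosomes, 0 of 6 did. The class I molecules themselves were abundant. Heavy chain genes are alike in sequence, as are the guanylate-binding proteins named below, so reads could have been shared between them. B2m, their light chain, was at 1652, 1560 and 1548 FPKM in WT and 1897, 1991 and 1746 FPKM in Crlf2-/- hearts. H2-K1, a heavy chain, was at 277, 278 and 272 FPKM in WT and 310, 336 and 325 FPKM in Crlf2-/- hearts. Both had every Crlf2-/- heart above every WT heart, as did 5.37% of all genes tested. Their log2 fold changes were 0.25 and 0.23, with unadjusted p of 0.0962 and 0.0657 and adjusted p of 0.845 and 0.807 by limma. H2-D1 overlapped between groups, at 0.16.

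Interferon signalling genes stand upstream of the 10 genes in textbook accounts. Of 14 tested of 16 listed, 2 were higher in Crlf2-/- hearts at an unadjusted p under 0.05, beside 3.22% of all genes. At that limit 1 was lower, beside 3.36% of all genes, and 0 were called. The 2 were Stat2 and Irf9, which take part in the factor that binds the ISRE after type I interferon. Stat2 was at 8.83, 7.41 and 10.5 FPKM in WT and 12.2, 16.4 and 15.9 FPKM in Crlf2-/- hearts (log2 fold change 0.73, limma adjusted p = 0.254). Irf9 had a log2 fold change of 0.50, with a limma adjusted p of 0.250. Ifngr1, the ligand-binding chain of the interferon gamma receptor, was lower in 3 of 3, at 67.2, 63.0 and 65.4 FPKM in WT and 51.4, 53.0 and 50.4 FPKM in Crlf2-/- hearts (log2 fold change -0.33, limma adjusted p = 0.457). Irf1, the factor known to bind the Tap1 and Psmb9 promoters, had a log2 fold change of 0.07. Ifng itself was too low to be tested, at 0.235, 0.321 and 0.141 FPKM in WT and 0.104, 0.0331 and 0.0685 FPKM in Crlf2-/- hearts. Of the 7 genes of the RFX and NF-Y complex through which Nlrc5 acts, with Ciita, 0 had an unadjusted p under 0.05.

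Of 17 listed other genes known to respond to interferon gamma, 16 were tested and 0 called, with a median log2 fold change of 0.31. At an unadjusted p under 0.05, 6 of 16 were higher, beside 3.22% of all genes, and 0 lower, beside 3.36%. The 6 were the guanylate-binding proteins Gbp3, Gbp7 and Gbp9 and the immunity-related GTPases Igtp, Irgm1 and Irgm2, from 0.28 for Igtp to 0.75 for Gbp3. Another 3 of the 16 lay below 0, namely Gbp8 (-0.46), Cxcl9 (-0.27) and Gbp4 (-0.11). Gbp8 was lower in every Crlf2-/- heart than in any WT heart. Gbp3 was at 13.1, 10.04 and 15.3 FPKM in WT and 18.8, 23.4 and 21.7 FPKM in Crlf2-/- hearts.

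Cell type markers moved between the groups as well, and their part in the values above was not tested. All 10 of 10 T cell markers were lower in Crlf2-/- hearts at an unadjusted p under 0.05, beside 3.36% of all genes, with summed FPKM of 18.97 to 29.1 in WT and 9.78 to 12.4 in Crlf2-/- hearts. Of the NK cell, plasma cell and dendritic cell markers, 2 of 8, 3 of 5 and 3 of 8 were lower at that limit, beside the same 3.36%. The 2 lower NK cell markers were Gzma and Gzmb, with log2 fold changes of -0.77 and -1.11. On the NK cell list 5 of 8 log2 fold changes lay above 0, and the median was 0.06. Summed FPKM of that list, Gzma and Gzmb included, was 11.2 to 14.5 in WT and 7.59 to 11.05 in Crlf2-/- hearts. That of the plasma cell list was 215 to 376 and 89.3 to 126. The dendritic cell sums overlapped, at 16.03 to 21.4 and 10.8 to 16.6. Of 10 monocyte and macrophage markers 2 were higher at an unadjusted p under 0.05 (Fcgr1 and Ly6c2), beside 3.22% of all genes. Summed FPKM of the 10 was 1986 to 3582 in WT and 2300 to 2964 in Crlf2-/- hearts. Cardiomyocyte markers were lower in 3 of 7, with sums of 942 to 1823 in WT and 622 to 1227 in Crlf2-/- hearts. Endothelial markers were lower in 1 of 5, with sums of 115.463 to 137 in WT and 108 to 115.445 in Crlf2-/- hearts, which nearly met. Fibroblast markers were lower in 1 of 5 (Tcf21). Their sum was higher in every Crlf2-/- heart, at 4036 to 4129 against 3105 to 3898. It came mostly from Col1a1 and Postn, with WT means of 2260 and 1020 FPKM. These 2 had log2 fold changes above 0 and the other 3 below 0, with a median of -0.10 over the 5. Col1a1 had every Crlf2-/- heart above every WT heart (log2 fold change 0.25, limma adjusted p = 0.871). None of 5 B cell and 5 tested neutrophil markers had an unadjusted p under 0.05.

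Tapbp, Psmb9, Tap1, Psmb8 and Tap2 lie in the MHC region of chromosome 17, between base 33915899, where Tapbp begins, and base 34216321, where Tap2 ends. Of 35 other tested genes within 200 kb of them, 2 were higher at an unadjusted p under 0.05 (BC051226 and Daxx), beside 3.22% of all genes. At the same limit 4 were lower (Angptl4, H2-DMa, H2-Aa and H2-Eb1), beside 3.36% of all genes. The median log2 fold change of the 35 was -0.07. The neighbours of Psmb9 and Tap2 are class II genes, which present peptides from endosomes, and their log2 fold changes lay below 0. H2-Aa had a log2 fold change of -0.55 and H2-DMa, which edits class II peptides, of -0.32, with limma adjusted p of 0.486 and 0.518. The paper, testing counts with DESeq2, names H2-Aa among the genes lower in Crlf2-/- hearts. Daxx, a gene 1 place away from Tapbp among those tested, had a log2 fold change of 0.46 with a limma adjusted p of 0.551.

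**Figure D5:**
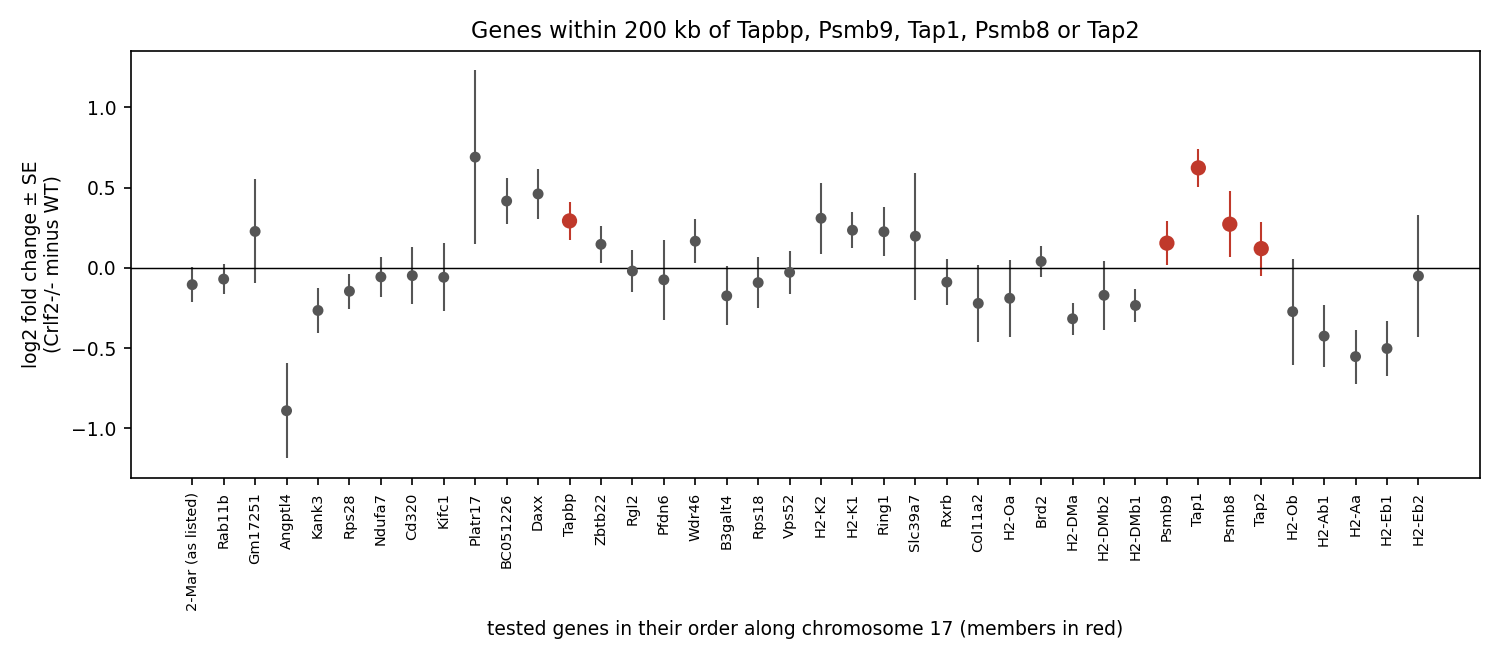
Log2 fold change, Crlf2-/- minus WT, with its SE (vertical axis) for the 40 tested genes within 200 kb of Tapbp, Psmb9, Tap1, Psmb8 or Tap2, in their order along chromosome 17 (horizontal axis, not to scale), the 5 members in red. The 5 members lie above 0 (0.12 to 0.62), with class II genes on both sides of the Psmb9 to Tap2 cluster below it.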

How the data were processed

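RNA from heart tissue of 3 WT and 3 Crlf2-/- mice was sequenced in pairs of reads by the study. The authors trimmed reads with fastp, aligned them with HISAT2 2.0.5, counted fragments with featureCounts and deposited FPKM per gene and library beside a gene length. Strandedness and annotation version were not given in the sources used here. The build notes among the labels name both a mouse and a human assembly, and the table's positions were set against GENCODE M21 (GRCm38), where of 54495 shared genes 53585 had the same start and end, among them 8 of the 10 members. The table held 0 columns of other samples.

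FPKM times gene length, divided by the step that 1 fragment makes in each library, gave whole fragments for 100% of nonzero values (tolerance 0.02 fragments, or the rounding of the value where larger). The step was found from the lowest nonzero values and refined on all. The filter kept genes with 10 or more fragments in 3 or more libraries and 15 or more over all 6. The study tested counts. Since the table holds FPKM, limma 3.58.1 in R 4.3.3 (eBayes with trend and robust) was run over all 15520 genes on log2(FPKM + 0.1), with TMM scaling between libraries (trimmed mean of M values). The pseudocount makes fold changes of low genes too small. Adjusted p-values are Benjamini-Hochberg over all genes tested. Python 3.11.15, numpy 2.4.6, pandas 2.3.3 and matplotlib 3.10.9 did the rest. The test was checked on simulated data with planted changes larger than those of the members, which does not show its power for differences of their size.

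The members and all lists were chosen with earlier results of these data known. Named beyond the members were list genes with an unadjusted p under 0.05 or the highest mean, the 5 genes most like the members in course, and neighbours within 200 kb. 1 gene of the interferon signalling list, an item kept back for evaluations, is not reported here. Irf1, Usp18 and single ratios were singled out after their values were seen. Same-numbered WT and Crlf2-/- libraries deviated together with correlations of -0.02, 0.12 and 0.12, so the numbers were not taken as pairs. Alternatives were another scaling, none, other filters and pseudocounts, voom on the fragments, limma without trend and robust, the replicate number as a block, other fold-change limits and leaving out each library. Levels per principal transcript were added after seeing the data. Promoter windows came from RefSeq (GRCm38.p6).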

Additional observations from a re-analysis of the deposited data

How the results depend on the processing

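The count of members called stayed at 0 under every alternative, and when each member's log2 fold change was set against each alternative, 145 values had the reported sign, and none passed the adjusted p limit. Nlrc5, reported at 0.44, was above the fold-change limit of 0.5 at 0.62 without WT replicate 3 and at 0.64 without Crlf2-/- replicate 2. The 5 other values changed sign near 0: Psme1 was -0.0079 without WT replicate 2, -0.0018 without WT replicate 3 and -0.086 without Crlf2-/- replicate 2, and Psme2 was -0.038 without WT replicate 2 and -0.0060 without Crlf2-/- replicate 2. Leaving out 1 library at a time, Psme1 ranged from -0.086 to 0.105, Psme2 from -0.038 to 0.30, Psmb8 from 0.15 to 0.50, Psmb9 from 0.08 to 0.29, Psmb10 from 0.08 to 0.28, Tap2 from 0.02 to 0.32, Erap1 from 0.03 to 0.21, the ratio of Psmb8 to Psmb5 from 0.05 to 0.36 and the ratio of Psmb9 to Psmb6 from -0.036 (without WT replicate 1) to 0.43 on the log2 scale. Psmb8, Psmb9, Psmb10 and Tap2 were highest without Crlf2-/- replicate 1. Members with an unadjusted p under 0.05 numbered 2 as reported, 1 with limma without trend and robust (Tap1) and 1 to 5 when a library was left out, with 5 without Crlf2-/- replicate 1 and 1 without WT replicate 1, WT replicate 2 or Crlf2-/- replicate 3. The number of all genes called was 2, against 6 with no filter on low genes, 1 with at least 10 fragments in every library, 3 with voom, and 1 to 14 when a library was left out (14 without Crlf2-/- replicate 1, 5 without WT replicate 3, 1 without WT replicate 1, WT replicate 2 or Crlf2-/- replicate 3). With the replicate number as a block, 4 genes were called, 0 of them members, and 2 members had an unadjusted p under 0.05, but these were Tap1 and Nlrc5 in place of Tap1 and Tapbp (unadjusted p of 0.0337 for Nlrc5 and 0.0514 for Tapbp by limma). The same exchange, Nlrc5 for Tapbp, followed leaving out WT replicate 3 or Crlf2-/- replicate 2. Where a value moved, the cause was not tested. With 3 mice a group the 95% confidence intervals of 8 members include 0, and differences within those intervals are not excluded.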
